A study of Homo sapiens with 6 samples.

Results

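The genes described here are 38 regulators of chromatin, among them the complexes that serve MyoD as coactivators and corepressors: polycomb proteins, histone deacetylases, acetyltransferases, methyltransferases and a demethylase, SWI/SNF subunits and the NuRD remodeller CHD4. They were chosen by symbol. A gene was read from the transcript cluster, the array's unit of measurement for 1 gene, that carried only its symbol. Of the 38, 35 had such a cluster, 1 each, out of 22448 genes with a value on these arrays. BMI1 and EP300 lay only in clusters shared with other symbols and RNF2 was not named in any cluster, so that these 3 were not analysed here.

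The 6 arrays used here profiled RNA of RH30, an established line of fusion-positive rhabdomyosarcoma. The cells of this tumour carry the muscle program but do not complete it. According to the sample labels, the cells of all 6 arrays carried the super-repressor form of IκBα (RH30-SR), which blocks NF-κB signalling. The array names of the controls in a second deposited table do not mention it, and if the controls lacked it, its effect and that of MyoD could not be told apart. In 3 arrays these cells were the control, and in the other 3 they were also deleted for MyoD with CRISPR (RH30-SR MyoDΔ). The comparison asked which transcripts depended on MyoD. All RH30-SR MyoDΔ arrays came from a single clone, and from the labels it is not known whether the controls were a clone or carried Cas9 and a guide. The labels give the medium as DMEM with serum, whereas the study's methods name RPMI for this line. The replicates were cultured as triplicates, and the spread behind each p value is that of these cultures, not of independent clones.

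MyoD binds the E-box, a short DNA motif with the letters CANNTG, and commits cells to skeletal muscle. At muscle genes it works through partners that alter histones. Before differentiation, histone deacetylases, the H3K9 methyltransferases SUV39H1 and G9a (EHMT2) and the polycomb methyltransferase EZH2 keep its targets silent. When differentiation starts, the acetyltransferases p300 (EP300) and PCAF (KAT2B), the arginine methyltransferases CARM1 and PRMT5, the lysine methyltransferase SETD7 and the SWI/SNF remodeller, with its BRG1 ATPase (SMARCA4) and its BAF60C subunit (SMARCD3), open them.

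The deletion was visible in its target transcript. On the log2 scale of the deposited values, MYOD1 read 9.09, 9.50 and 9.43 in RH30-SR against 6.95, 7.16 and 6.90 in RH30-SR MyoDΔ, with a wide gap between the groups. The fold change was -2.34 ± 0.12 on the log2 scale (SE, n = 3 per group, adjusted p = 1.02e-04, limma). Fold changes are RH30-SR MyoDΔ minus RH30-SR throughout, with the moderated SE of limma, and p values are adjusted over all 65535 clusters. In bulk RNA, fewer cells that express a gene and less RNA per cell cannot be told apart. The myogenic markers fixed for these cells, 7 genes, had mean log2 values of 8.81 to 9.04 in RH30-SR and 7.10 to 7.17 in RH30-SR MyoDΔ, with 6 lower, 1 higher (MYF5) and none below the array's median level in every array. A marker of macrophages, CD68, was higher by 0.89, the only one called of 4 leukocyte markers measured (mean 4.23 to 4.31 against 4.41 to 4.47). Of 5 epithelial markers none was called, and of 4 stress genes DDIT3 was higher at 0.49. Of 5 endothelial markers PECAM1 was lower at -0.48. It was among the 3 of these 5 that lay below the array's median level in every array. RH30-SR replicate 2 lay somewhat apart from the other arrays of its group.

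The transcripts of most of these regulators differed little between the groups, as did those of most genes. A gene was called when its adjusted p was below 0.05 and its fold change over 25%, which is 0.32 on the log2 scale. By this rule 1 of 35 fell, SUV39H1, and 0 rose, where 7.01% of all 22448 genes were called, 4.20% lower and 2.81% higher. At an adjusted p below 0.05 alone, 5 differed: SUV39H1, KAT2B, SETD7 and SMARCD3 were lower and CHD4 was higher, against 9.95% of all genes (5.72% lower, 4.24% higher). By an unadjusted p below 0.05 there were 11, against 24.6% of all genes. The 35 fold changes ran from -0.41 to 0.27 around a median of 0.02 on the log2 scale, 19 above 0 and 16 below. The median over all genes was -0.01. Without regard to sign, the median change was 0.09 for the members and 0.07 for all genes. The arrays of the groups did not overlap for 16 members, 8 in each direction, where 34.2% of all genes did not overlap. Members lay at a higher level, with a median of 6.96 on the log2 scale beside 5.46 for all genes. None of the shares of all genes given here was matched for level.

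The intervals of the fold changes were also read against the fold threshold, for the spread of these cultures only. The 95% interval of the fold change lay wholly inside the threshold of 25% for 28 of the 35 (80%), and for 73.2% of all genes. These intervals come from limma and are not adjusted for the number of genes. The 7 members whose interval reached past the threshold were SUV39H1, KAT2B, SETD7, SMARCD3, CHD4, EZH2 and SUZ12. Without RH30-SR replicate 2, a setting chosen after seeing the data, 27 of the 35 intervals lay inside the threshold.

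**Figure D1:**
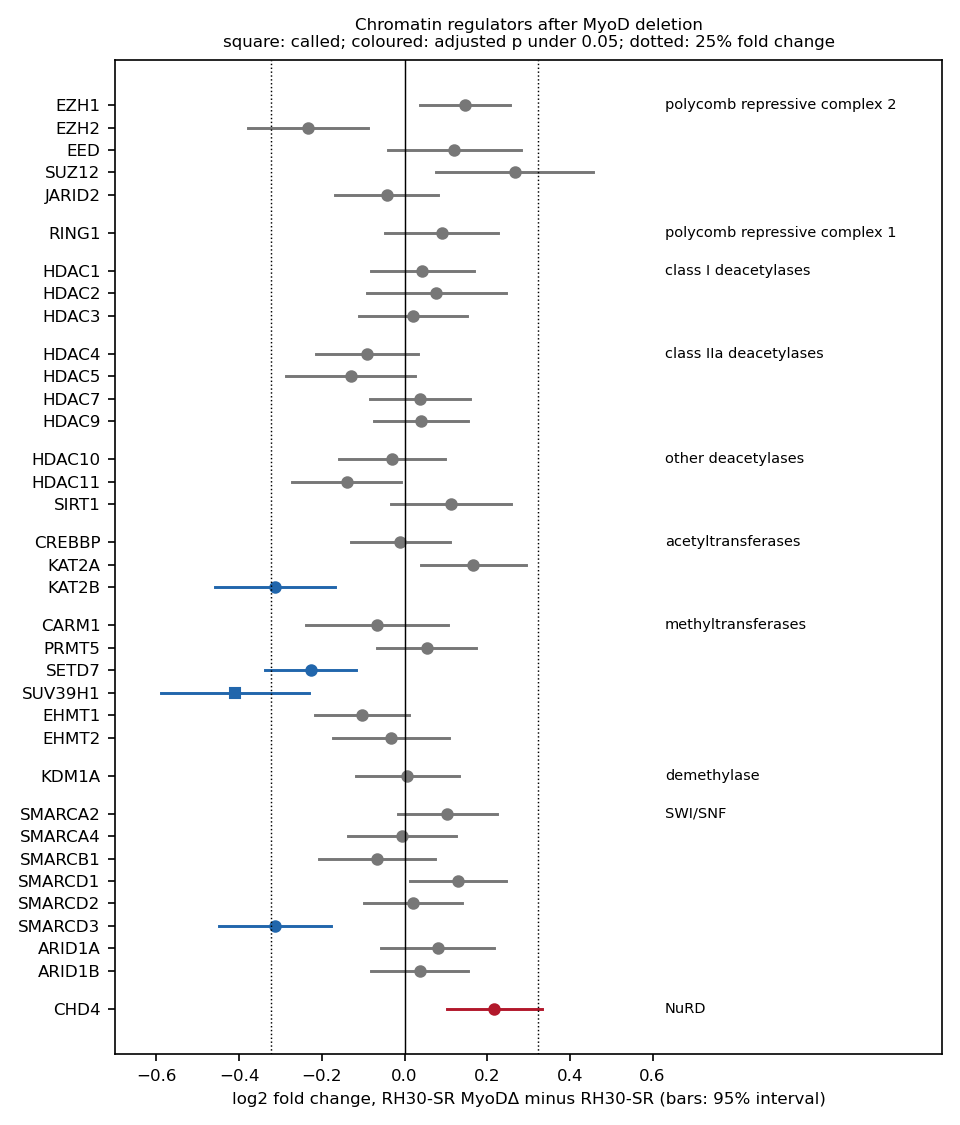
Fold change of each of the 35 measured members, RH30-SR MyoDΔ minus RH30-SR on the log2 scale, by role, as points with 95% moderated intervals (3 arrays per group). SUV39H1 sits lowest at -0.41, KAT2B and SMARCD3 follow at -0.31, and SUZ12 is highest at 0.27.

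The methyltransferases held the largest change. SUV39H1, which trimethylates lysine 9 of histone H3 and represses MyoD targets in myoblasts, read 7.55, 7.79 and 7.67 in RH30-SR and 7.24, 7.34 and 7.20 in RH30-SR MyoDΔ. Every RH30-SR MyoDΔ array was below every control array. The fold change was -0.41 ± 0.08 (interval -0.59 to -0.23), a 1.33-fold lower level (adjusted p = 0.0242). The call was lost when any 1 array other than RH30-SR replicate 1 was left out, with fold changes of -0.47 to -0.35 and adjusted p values of 0.0265 to 0.0969 over the 6 omissions. Without RH30-SR replicate 2, the control array that lay apart, it was at -0.35 with an adjusted p of 0.0519. SUV39H1 was also the only member on the X chromosome, whose genes as a group were lower in the clone, as described with the chromosomes.

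SETD7, a lysine methyltransferase of histone H3 and of other proteins that binds MyoD and assists muscle differentiation, was tightly measured. It read 7.83, 7.86 and 7.86 in RH30-SR against 7.60, 7.64 and 7.63. The groups stood clear of each other, and the fold change was -0.23 ± 0.05, a 1.17-fold lower level (adjusted p = 0.0352) that did not reach the fold threshold. With any 1 array left out the adjusted p was 0.0685 to 0.120.

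The other methyltransferases did not pass the test. EHMT2, which dimethylates lysine 9 of histone H3 and methylates MyoD itself, read 6.25, 6.41 and 6.33 in RH30-SR and 6.34, 6.27 and 6.28 in RH30-SR MyoDΔ, and these values overlapped (-0.03 ± 0.06, adjusted p = 0.836). Its partner in the same complex, EHMT1, did not overlap between groups, at -0.10 ± 0.05 (adjusted p = 0.315). CARM1, an arginine methyltransferase that helps MyoD activate late muscle genes, read 8.34, 8.58 and 8.52 against 8.46, 8.40 and 8.38 (-0.07 ± 0.07, adjusted p = 0.711), with overlap. PRMT5, which deposits symmetric arginine methylation and is needed for early recruitment of the SWI/SNF ATPase, read 8.54, 8.52 and 8.57 against 8.64, 8.60 and 8.55 (0.05 ± 0.05, adjusted p = 0.657), also with overlap. KDM1A (LSD1), the demethylase of the set, had a fold change of 0.01 ± 0.05 (adjusted p = 0.970), whose sign turned under quantile normalization and cyclic loess.

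**Figure D2:**
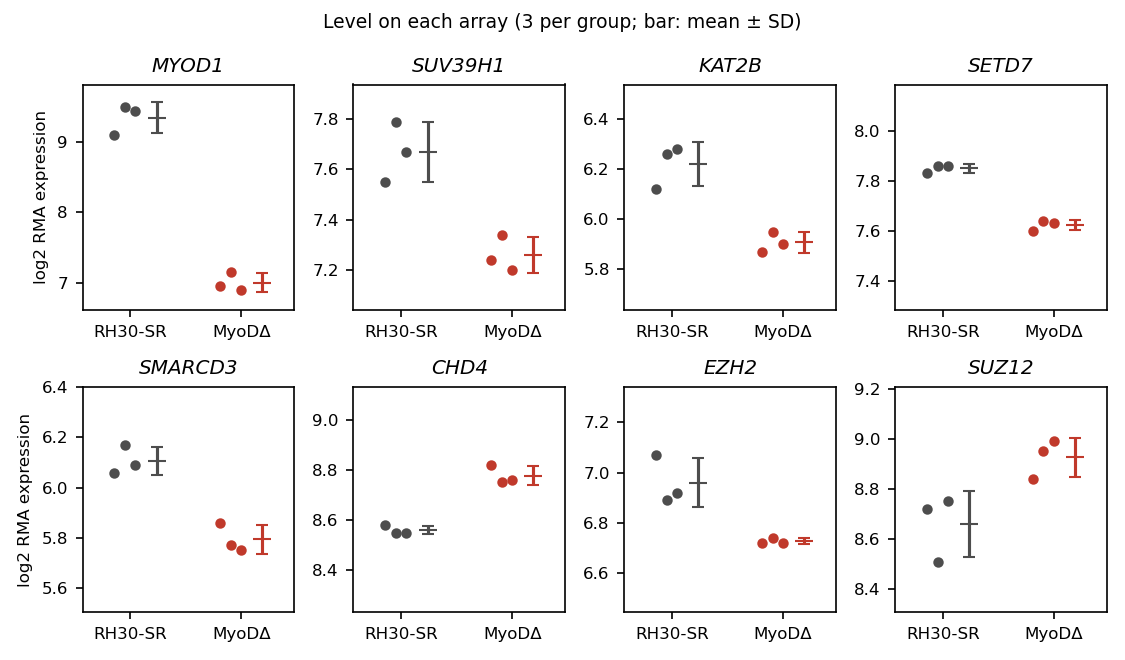
Log2 level in each of the 6 arrays (points) with group mean ± SD (n = 3) for MYOD1 and 7 members. RH30-SR MyoDΔ arrays lie below RH30-SR arrays for SUV39H1, KAT2B, SETD7, SMARCD3 and EZH2, and above them for CHD4 and SUZ12, by far less than for MYOD1.

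Among the acetyltransferases the paralogs PCAF (KAT2B) and GCN5 (KAT2A), alternative catalytic subunits of the same coactivator complexes, had fold changes of opposite sign. KAT2B, which acetylates MyoD, read 6.12, 6.26 and 6.28 in RH30-SR and 5.87, 5.95 and 5.90 in RH30-SR MyoDΔ. The groups did not overlap, and the fold change was -0.31 ± 0.06, a 1.24-fold lower level just short of the fold threshold (adjusted p = 0.0300). Leaving out 1 array at a time gave adjusted p values of 0.0300 to 0.108, and KAT2B passed both thresholds only without RH30-SR replicate 1. KAT2A read 6.99, 7.04 and 6.93 against 7.19, 7.12 and 7.15 and did not pass the test (0.17 ± 0.05, adjusted p = 0.141). CREBBP, the close relative of p300, gave one of the smallest differences of the set, at -0.01 ± 0.05 (interval -0.13 to 0.11, adjusted p = 0.951).

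Of the 8 members from the SWI/SNF remodeller, which slides and ejects nucleosomes, 1 had an adjusted p below 0.05 and none was called. SMARCD3 (BAF60C), the subunit that binds MyoD before the rest of the complex arrives, read 6.06, 6.17 and 6.09 in RH30-SR and 5.86, 5.77 and 5.75 in RH30-SR MyoDΔ. All RH30-SR MyoDΔ arrays were lower (-0.31 ± 0.06, 1.24-fold, adjusted p = 0.0233), again just short of the fold threshold. Its adjusted p was 0.0464 to 0.0975 with 1 array left out, and it passed both thresholds only without RH30-SR MyoDΔ replicate 1. The alternative BAF60 subunits were not lower: SMARCD1 was at 0.13 ± 0.05 (adjusted p = 0.210) and SMARCD2 at 0.02 ± 0.05 (adjusted p = 0.889).

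The remaining SWI/SNF members did not pass the test. SMARCA4 (BRG1), the ATPase that MyoD recruits, read 8.18, 8.18 and 8.09 in RH30-SR and 8.20, 8.13 and 8.10 in RH30-SR MyoDΔ (-0.01 ± 0.06, interval -0.14 to 0.12, adjusted p = 0.970). The alternative ATPase SMARCA2 (BRM) was at 0.10 ± 0.05 (adjusted p = 0.339) without overlap between groups. The core subunit SMARCB1 and the large subunits ARID1A and ARID1B were at -0.07, 0.08 and 0.04, with adjusted p values of 0.633, 0.542 and 0.772. CHD4, the ATPase of the NuRD complex, which joins remodelling with deacetylation, read 8.58, 8.55 and 8.55 in RH30-SR and 8.82, 8.75 and 8.76 in RH30-SR MyoDΔ. It was the only member that was higher at an adjusted p below 0.05 (0.22 ± 0.05, 1.16-fold, adjusted p = 0.0478). That adjusted p became 0.0557 to 0.0766 under 3 other normalizations and 0.0900 to 0.152 with 1 array left out.

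None of the 6 polycomb members measured was called. EZH2, which trimethylates lysine 27 of histone H3 and is the catalytic subunit of polycomb repressive complex 2 in dividing cells, read 7.07, 6.89 and 6.92 in RH30-SR and 6.72, 6.74 and 6.72 in RH30-SR MyoDΔ. The groups did not overlap, but the adjusted p was 0.0823 (-0.23 ± 0.06, interval -0.38 to -0.09). It passed 0.05 with array weights, a trended robust prior, a filter on dim clusters and adjustment over clusters with 1 symbol (0.0229 to 0.0491), and in none of the 6 omissions of an array. SUZ12, a scaffold subunit of the same complex, read 8.72, 8.51 and 8.75 against 8.84, 8.95 and 8.99, a difference of the opposite sign (0.27 ± 0.08, interval 0.08 to 0.46, adjusted p = 0.119). EZH1, the alternative catalytic subunit that prevails in resting cells, was at 0.15 ± 0.05 (adjusted p = 0.137) without overlap, and EED, which reads the mark, was at 0.12 ± 0.07 (adjusted p = 0.418). JARID2, a recruiting subunit, and RING1, the ubiquitin ligase subunit of polycomb repressive complex 1, were at -0.04 and 0.09 (adjusted p = 0.742 and 0.487).

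EZH2 is more abundant in dividing than in resting cells, so proliferation markers were read beside it and SUV39H1. Of 17 measured, 2 were lower (MCM2 at -0.39 and MCM7 at -0.33, subunits of the replicative helicase) and none was higher, and at an adjusted p alone 4 were lower, also MCM5 and MCM6. The mean level of the list was 8.68 to 8.75 in RH30-SR and 8.64 to 8.67 in RH30-SR MyoDΔ. The part of proliferation in the levels of EZH2 and SUV39H1 was not tested.

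No histone deacetylase among the members passed the test. HDAC1, which MyoD binds in undifferentiated myoblasts, read 7.84, 7.79 and 7.86 in RH30-SR and 7.93, 7.85 and 7.84 in RH30-SR MyoDΔ, with overlap (0.04 ± 0.05, interval -0.08 to 0.17, adjusted p = 0.742). The other class I enzymes, HDAC2 and HDAC3, were at 0.08 and 0.02 (adjusted p = 0.648 and 0.902). The class IIa enzymes HDAC4, HDAC5, HDAC7 and HDAC9, which bind MEF2 and leave the nucleus when muscle differentiates, were at -0.09, -0.13, 0.04 and 0.04, with adjusted p values of 0.429, 0.357, 0.782 and 0.740. HDAC11 did not overlap between groups (-0.14 ± 0.06, adjusted p = 0.233), and neither did the NAD-dependent deacetylase SIRT1 (0.11 ± 0.06, adjusted p = 0.394). HDAC10 was at -0.03 (adjusted p = 0.838).

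Because several of these proteins occupy the same place in a complex, the log2 ratio of 2 paralogs was taken within each array and its shift between groups was tested. Such a shift compares changes and not the levels of different genes, since probes differ. Of 12 pairs, 10 had values, and in 4 the groups did not overlap. As single genes, 34.2% of all genes and 16 of the 35 members did not overlap. The share among ratios of other gene pairs was not taken. The pairs were chosen as pairs of alternative subunits with the single-gene results known, and each ratio repeats the values of its 2 genes. The exact permutation test of 3 arrays against 3 cannot go below p = 0.1, the value each of the 4 reached (two-sided, 0.25 after Benjamini-Hochberg adjustment over the 10 pairs), so that none could pass 0.05.

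Of the 4 separated ratios, SMARCD3/SMARCD2 had the smallest error. It was -0.86, -0.82 and -0.85 in RH30-SR and -1.14, -1.21 and -1.18 in RH30-SR MyoDΔ, a shift of -0.33 ± 0.02. Against SMARCD1 the ratio of SMARCD3 was -1.35, -1.27 and -1.40 and then -1.71, -1.83 and -1.81, a shift of -0.44 ± 0.05. Both ratios were lower in every RH30-SR MyoDΔ array, as the level of SMARCD3 itself was. The KAT2A/KAT2B ratio went from 0.87, 0.78 and 0.65 to 1.32, 1.17 and 1.25 (0.48 ± 0.08), and the EZH1/EZH2 ratio from -0.35, -0.13 and -0.18 to 0.15, 0.16 and 0.17 (0.38 ± 0.07). In the other 6 pairs the groups overlapped, with shifts between -0.07 (EHMT1/EHMT2) and 0.11 (SMARCA2/SMARCA4) and exact p values of 0.2 to 1.

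**Figure D3:**
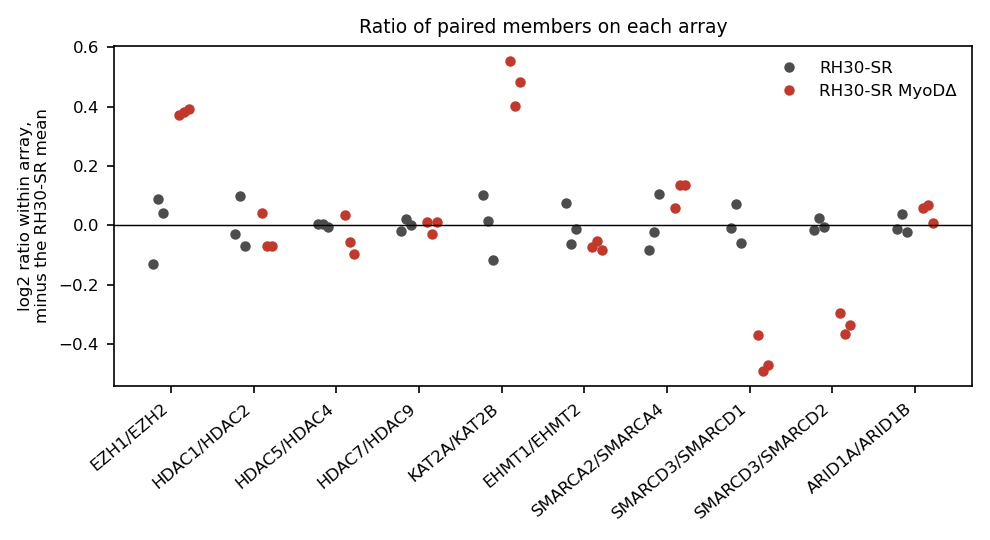
Log2 ratio of 10 paralog pairs in each array, set to 0 at the RH30-SR mean of the pair (points are arrays, 3 per group). The groups separate for KAT2A/KAT2B and EZH1/EZH2, which shifted up by 0.48 and 0.38, and for SMARCD3/SMARCD1 and SMARCD3/SMARCD2, which shifted by -0.44 and -0.33.

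The 250 bases before the start of each gene were searched for the E-box letters CANNTG and for CAGCTG, the form of CANNTG that MyoD favours. Both read alike on either strand, and every CAGCTG is also a CANNTG. Promoters of 3 of the members that were lower are printed because they hold CAGCTG, and that of SMARCD3 because it was lower and holds no CANNTG. Sequences are from RefSeq (GRCh38.p14), 5′ to 3′ on the strand of the gene, with each CANNTG in capitals. They lie at chrX:48695304-48695553 (plus strand) for SUV39H1, chr3:20040196-20040445 (plus strand) for KAT2B, chr4:139556220-139556469 (minus strand) for SETD7 and chr7:151248695-151248944 (minus strand) for SMARCD3.
SUV39H1 promoter: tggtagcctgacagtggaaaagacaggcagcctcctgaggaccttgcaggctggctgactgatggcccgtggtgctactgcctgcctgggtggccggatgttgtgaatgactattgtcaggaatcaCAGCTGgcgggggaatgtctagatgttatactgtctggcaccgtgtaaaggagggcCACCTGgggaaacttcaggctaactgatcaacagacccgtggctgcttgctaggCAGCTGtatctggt
KAT2B promoter: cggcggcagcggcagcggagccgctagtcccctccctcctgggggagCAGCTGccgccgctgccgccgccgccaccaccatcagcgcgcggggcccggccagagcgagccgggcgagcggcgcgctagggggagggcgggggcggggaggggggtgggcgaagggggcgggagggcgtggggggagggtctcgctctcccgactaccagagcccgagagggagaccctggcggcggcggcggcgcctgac
SETD7 promoter: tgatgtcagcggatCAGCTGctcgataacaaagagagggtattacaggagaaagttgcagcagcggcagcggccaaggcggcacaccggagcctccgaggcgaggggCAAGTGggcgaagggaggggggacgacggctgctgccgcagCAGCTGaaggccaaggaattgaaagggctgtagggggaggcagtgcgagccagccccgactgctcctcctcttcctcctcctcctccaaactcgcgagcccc
SMARCD3 promoter: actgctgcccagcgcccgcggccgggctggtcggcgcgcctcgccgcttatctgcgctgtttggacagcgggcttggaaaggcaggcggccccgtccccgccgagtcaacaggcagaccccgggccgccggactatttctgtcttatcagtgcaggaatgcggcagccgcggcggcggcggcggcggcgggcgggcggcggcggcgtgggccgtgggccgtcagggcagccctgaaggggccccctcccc

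In SUV39H1, CAGCTG began 124 and 14 bases before the start with CACCTG between them at 68. In SETD7, CAGCTG began 236 and 102 bases before the start with CAAGTG at 143, and in KAT2B a single CAGCTG began at 203. The promoter of CHD4, the member that was higher, held none. Of 37 members with a promoter in the table, 16 held CANNTG (43.2%) and 4 held CAGCTG (10.8%), where 62.4% and 13.9% of 27305 promoters of the same length did. Of the 5 members with an adjusted p below 0.05, 3 held CAGCTG, and of 29 other measured members only ARID1A did. This was read with the results known and is a description of letters, which carries no test and shows no binding.

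SUV39H1 was read against its chromosome. On X, 108 of 889 genes were lower (12.1%) and 16 higher, with a median fold change of -0.05 on the log2 scale. On the 22 autosomes 2.43% to 6.01% of genes were lower, and medians ran from -0.04 to 0.02. The fold change of SUV39H1 minus the median of X was -0.36. Of its 20 measured neighbours on the chromosome 2 were lower and 17 were below 0, with a median of -0.10. Without X, 0 of 34 members were called, where 1449 of 21559 genes were (6.72%). The part of the X chromosome in the level of SUV39H1 was not tested.

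The neighbours of the autosomal members were read in the same way, 10 on each side, a window chosen after seeing the data. Around SETD7, 5 of 20 were lower and 1 was higher, with a median of -0.06. Around KAT2B, SMARCD3 and CHD4 none was called, with medians of -0.02, -0.04 and 0.02. SETD7 was thus the only one of these 4 genes with called neighbours in the window.

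**Figure D4:**
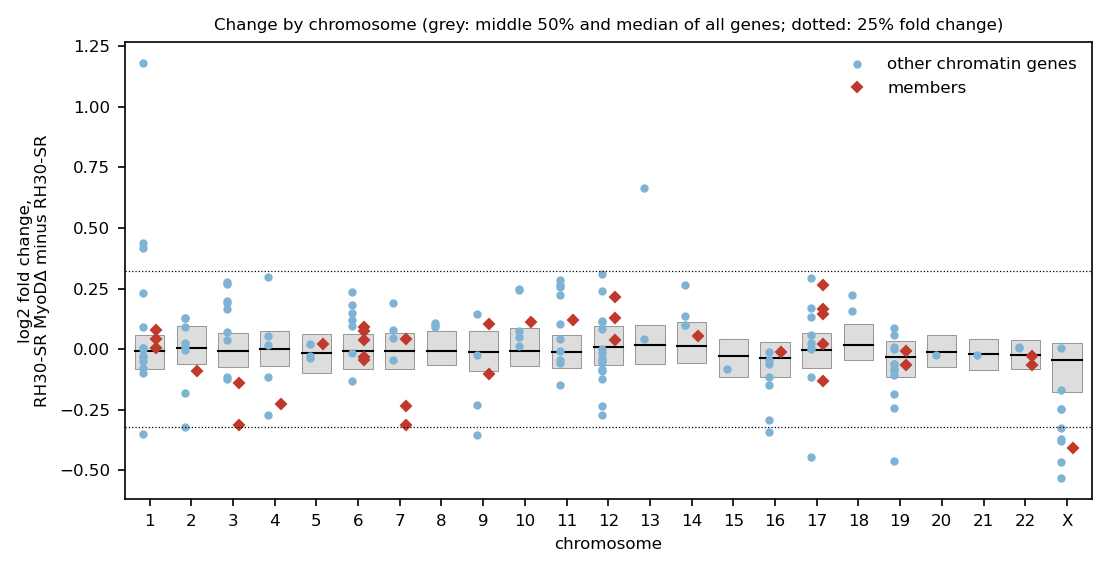
Fold change on the log2 scale by chromosome: grey boxes span the middle 50% of all genes with the median as a line, blue points are other chromatin genes and red diamonds are members. On X, SUV39H1 (-0.41) lies among other chromatin genes that are mostly below 0.

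The members were set beside 147 other genes of the same complexes and enzyme families, of which 137 were measured. Of these 14 were called, 10 lower and 4 higher, which is 10.2% beside 7.01% of all genes, and 30 passed an adjusted p alone, 17 lower and 13 higher, which is 21.9% beside 9.95%. The median fold change was 0.00. Their median level was 6.92 on the log2 scale, beside 5.46 for all genes, and the shares were not matched for level. Of the 14, 5 lay on X, where 5 of 9 measured were lower and none higher: BCOR, a subunit of a variant polycomb complex (-0.53 ± 0.05), the deacetylase HDAC8 (-0.47 ± 0.05), the histone chaperone RBBP7 of polycomb and NuRD (-0.38 ± 0.06), the corepressor subunit TBL1X (-0.37 ± 0.05) and the H3K4 demethylase KDM5C (-0.33 ± 0.06). Without X, 9 of 128 were called (7.03%), 5 lower and 4 higher, a share near the 6.72% of all genes not on X. By an adjusted p alone the share stayed above that of all genes. Without X, 23 of 128 passed it, 10 lower and 13 higher, beside 2072 of 21559 genes.

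The 9 autosomal genes called included a pair of methyltransferases with far larger changes than any member. SMYD3, a lysine methyltransferase of the SET and MYND family, read 5.99, 5.95 and 5.98 in RH30-SR and 7.18, 7.18 and 7.10 in RH30-SR MyoDΔ (1.18 ± 0.05, 2.27-fold, adjusted p = 4.30e-05). SETDB2, related to the H3K9 methyltransferases, rose from 5.30, 5.30 and 5.34 to 5.83, 6.08 and 6.02 (0.66 ± 0.07, adjusted p = 0.00303). These were the only genes called of 25 other lysine methyltransferases measured. The H3K4 demethylase KDM5B rose by 0.44 ± 0.05 (adjusted p = 0.00239). It read 4.33, 4.29 and 4.31 in RH30-SR and 4.74, 4.75 and 4.76 in RH30-SR MyoDΔ, near the median level of all clusters (4.295).

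Within NuRD the alternative ATPases CHD4 and CHD3 had fold changes of opposite sign. CHD3 read 7.77, 7.78 and 7.76 in RH30-SR and 7.38, 7.31 and 7.29 in RH30-SR MyoDΔ (-0.44 ± 0.05, adjusted p = 0.00325), and the structural subunit GATAD2B rose by 0.42 ± 0.06 (adjusted p = 0.00916). The other 8 measured genes of the NuRD list, which did not hold the shared subunit RBBP7, were not called. Of 20 further SWI/SNF subunits none was called (BCL7C had an adjusted p of 0.0343 at -0.29). SIRT2, a mainly cytoplasmic deacetylase, fell by 0.46 ± 0.06 on the log2 scale (adjusted p = 0.00517). The acetyltransferase KAT8, the acetyl-lysine reader BRD3 and the arginine methyltransferase PRMT6 were lower at -0.34, -0.35 and -0.35 (adjusted p = 0.0119, 0.0163 and 0.0290).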

How the data were processed

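Total RNA of 3 RH30-SR and 3 RH30-SR MyoDΔ cultures was hybridised to Affymetrix Human Transcriptome 2.0 arrays. The authors computed the deposited values, 1 log2 level for each transcript cluster and array, with RMA (background correction, quantile normalization and median polish). Software versions and the genome build behind the array annotation are not given in the sources used here. Quantile normalization hides a change shared by most transcripts. Array medians were 4.27 to 4.31. Within-group correlations across clusters were 0.994 to 0.997 and between-group ones 0.989 to 0.992. The number of arrays limits the precision. A second table with the same values was not used. No background measure or batch was given.

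Symbols came from the platform annotation. 22758 clusters carried 1 symbol and 1389 carried several, which were left unnamed. Where a gene had more than 1 cluster, the one with the highest mean was used. limma 3.58.1 in R 4.3.3 (lmFit, eBayes, group as the only term) was fitted to all 65535 clusters, with two-sided Benjamini-Hochberg adjusted p values. The thresholds, 0.05 and a fold change over 25%, are those of the study's methods. Those methods describe a fit that also held RH30 cells as a group, which is not among the arrays used here. Paralog ratios were tested by exact permutation. The members and the lists were chosen with earlier results of these data known. MYOD1 and all members were named by rule, as were up to 3 called genes per other chromatin list and direction, by size of change. The procedure was tested on simulated data. Alternatives were other normalizations, array weights, a trended robust prior, a filter on dim clusters, other adjustment sets, mean of clusters, a replicate block and leaving out arrays.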

Additional observations from a re-analysis of the deposited data

How the results depend on the processing

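1 member was called under each of the other normalizations, array weights, prior, filter and cluster choices, and 5 by adjusted p alone. Leaving out 1 array at a time gave 0 to 2 members: SUV39H1 and KAT2B without RH30-SR replicate 1, SMARCD3 alone without RH30-SR MyoDΔ replicate 1, and none without any of the other 4. The 14 calls among other chromatin genes became 30 by adjusted p alone and 9 to 14 with 1 array left out. The 1573 calls over all genes became 2234 by adjusted p alone and 1110 to 1376 with 1 array left out. Without X, a setting chosen after seeing the data, members called were 0, other chromatin genes 9 and all genes 1449. Separated paralog ratios numbered 4, and 4 to 7 with 1 array left out. Leaving out an array cannot make separated groups overlap, so that this count could only stay or rise and shows no stability.

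Same-numbered arrays did not deviate together (correlations -0.05, -0.04 and 0.03), so that replicate numbers were not taken as pairs. With a replicate block 1 member (SUV39H1), 11 other chromatin genes and 1165 genes were called, and the adjusted p of KAT2B, SETD7, SMARCD3 and CHD4 became 0.0700, 0.127, 0.0881 and 0.143.

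Adjusted only over clusters with 1 symbol, EZH1, EZH2, SUZ12 and KAT2A also passed 0.05 (0.0301, 0.0229, 0.0440 and 0.0397), below the fold threshold. EZH1 and EZH2 did so too with the filter on dim clusters (0.0464 and 0.0341). Members near 0 changed sign. KDM1A was at -0.019 with quantile normalization, -0.021 with cyclic loess and -0.0075 with array weights, and SMARCA4 at 0.0019 with array weights. With 1 array left out, HDAC3 ranged from -0.0083 to 0.048, HDAC10 from -0.053 to 0.0067, CREBBP from -0.032 to 0.018, EHMT2 from -0.073 to 0.0067, KDM1A from -0.022 to 0.033 and SMARCA4 from -0.037 to 0.015. With 3 arrays per group from 1 clone, changes under the fold threshold were at the edge of what these arrays resolve, and every change of a member that passed an adjusted p of 0.05 lost it in 5 or 6 of the 6 omissions.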
